A study of Lactuca sativa with 12 samples.

Results

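Leaves of lettuce (Lactuca sativa, cultivar Red oak-leaf) that had received selenium nanoparticles together with cadmium were compared with leaves that had received cadmium alone. The genes described are all 433 rows of the authors' deposited table for this comparison, out of 2264 genes that appear in any of the study's 6 tables of pairwise comparisons. Each table lists only the genes the authors called with DESeq2, at an adjusted p under 0.05 and a fold change over 2 in either direction. A gene missing from a table therefore failed one of these limits, and its values are known here only where another table lists it.

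All plants grew hydroponically and were treated from an age of 4 weeks, and leaves were taken at the 6-leaf stage, at 1.5 months. The Cd group received cadmium at 10 mg/L, and the CdSeNP group received the same cadmium dose with selenium nanoparticles at 3 mg/L. Beside them stood an untreated control group (CK) and a group given the nanoparticles alone at 3 mg/L (SeNP). The labels give the cadmium dose both as cadmium and as hydrated cadmium chloride, so the dose of the metal itself is uncertain. Each group has 3 libraries of poly(A) RNA from whole leaves. The Cd libraries held 28938527 to 31358371 reads and the CdSeNP libraries 23782166 to 28599119, as worked out from counts, FPKM and gene length, so every CdSeNP library was the shallower. The labels do not say whether the libraries of a group came from separate plants, so p-values measure the spread between these libraries, which may be technical. Genes of the photosynthetic apparatus, which mark leaf mesophyll, were abundant in every library of both groups.

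Cadmium is a non-essential metal that enters plants through carriers of iron, zinc and calcium, binds thiols and disturbs iron balance and redox balance. Selenium is not essential for plants but is taken up and can alter their antioxidant and hormone systems. Leaves read water deficit, wounding and microbes through calcium, abscisic acid, jasmonate and ethylene, and many of the first genes to respond code for calcium sensors, AP2/ERF and WRKY transcription factors, ubiquitin ligases and enzymes that break hormones down.

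Adding the nanoparticles to cadmium went with higher transcript levels at 251 genes, among them genes of abscisic acid and water deficit, calcium sensors, WRKY, NAC and ERF transcription factors, U-box ubiquitin ligases and immune receptors. It went with lower levels at 182 genes, among them lipid-transfer proteins, proline-rich wall proteins, kirola and other Bet v 1 proteins, nitrate reductase and metal transporters. Of 23096 genes the authors tested, the higher calls are 1.09% and the lower calls 0.788%, and since the table was selected on this contrast nothing more is read from these shares. Most changes were small. The change was under 3-fold at 216 of the higher and 140 of the lower genes and over 4-fold at 13 and 20. The 3 CdSeNP libraries did not overlap with the 3 Cd libraries at 247 of the 251 higher and 173 of the 182 lower genes, which is 97% of genes chosen for this difference. Among 469 uncalled genes that have values in both groups through other tables of the study, the libraries did not overlap at 234 (49.9%). The lower genes were expressed at lower levels, with a median of 1.54 FPKM (fragments scaled by gene length and library size) against 8.42 FPKM for the higher genes. The replicates of the lower genes also varied more, with a median SD of 0.26 in Cd and 0.33 in CdSeNP on the log2 scale, against 0.13 and 0.14 for the higher genes.

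**Figure D1:**
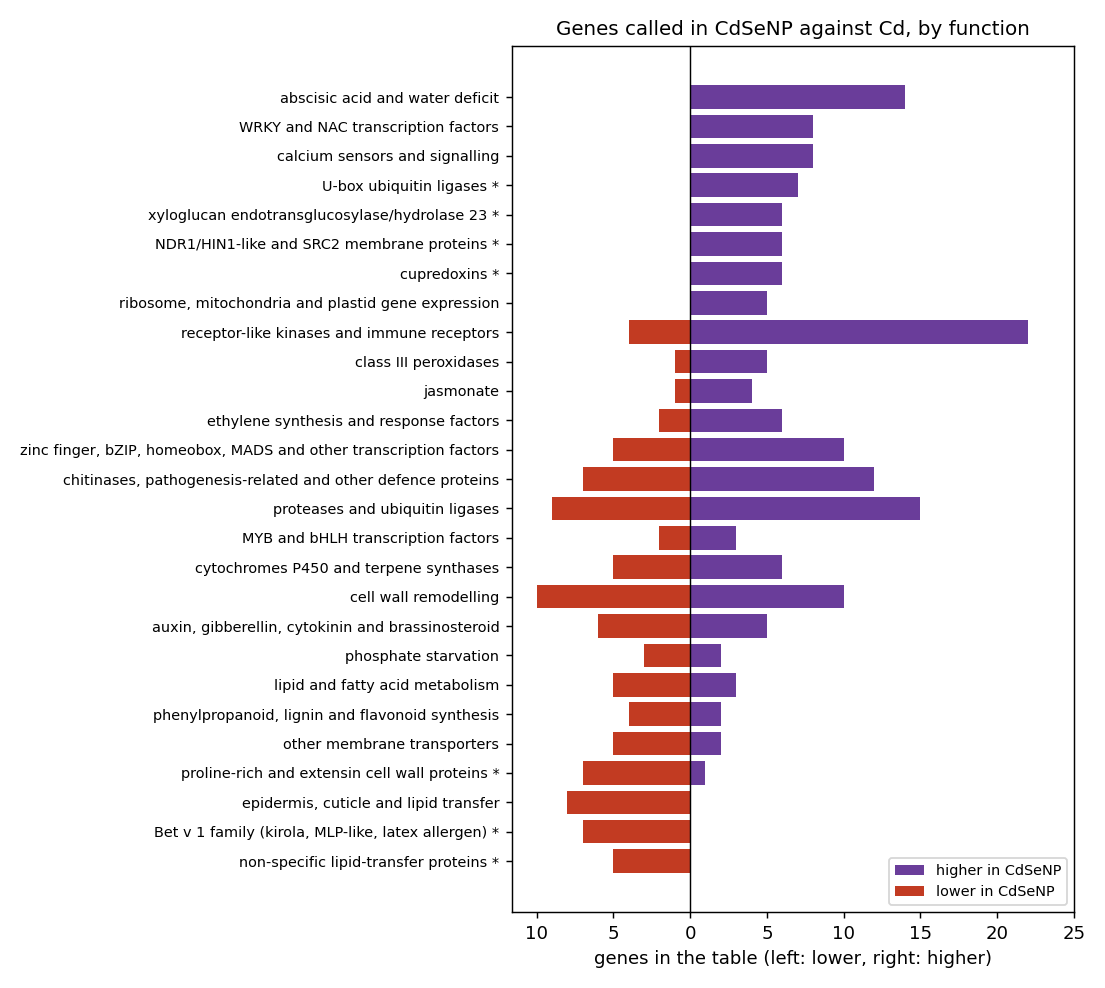
Number of called genes per function group, with genes higher in CdSeNP to the right and genes lower in CdSeNP to the left; groups with at least 5 genes are drawn, and those with an asterisk were assembled after the values were seen. All 14 called genes of abscisic acid and water deficit and all 8 called calcium genes were higher, and all 8 called genes of epidermis, cuticle and lipid transfer were lower.

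Refitting the counts of the 433 genes kept fewer calls. With edgeR's quasi-likelihood test, 213 of the higher and 105 of the lower genes passed the same limits, and with a DESeq2 refit 222 and 134 passed. The refits can only lose calls, because genes that the authors tested but did not list had to be counted as unchanged in the adjustment. Leaving out CdSeNP 1 reduced the edgeR calls to 150 higher and 53 lower, and leaving out Cd 2 reduced them to 168 and 66. Over the lower genes, CdSeNP 1 lay a median of 0.23 below the mean of its group and CdSeNP 3 lay 0.22 above it, on the log2 scale.

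All 14 called genes tied to abscisic acid and water deficit were higher in CdSeNP, with a median log2 fold change of 1.19 against 1.20 over all 251 higher genes. Another 7 genes matched by the same words were not called, and 6 of them lay below 0, with a median log2 difference of -0.10. Among these uncalled genes, the RD22 genes LOC111889614 and LOC111889608, named for a protein induced by drought in Arabidopsis, had log2 differences of -0.50 (95% interval -0.76 to -0.24) and -0.35 (95% interval -0.62 to -0.08). The change that stood out was at the dehydrin Rab18 (LOC111913327, chromosome 2, 166825393 to 166826214, minus strand), a hydrophilic protein that accumulates in drying tissue and after abscisic acid. Its level was 0.93, 1.2 and 1.16 FPKM in Cd 1 to Cd 3 and 66, 48.3 and 64 FPKM in CdSeNP 1 to CdSeNP 3. The groups were far apart, and the log2 fold change was 5.80 with DESeq2 in the authors' deposited table. Its standard error, worked out from the table's p, was 0.2, and the adjusted p was 5.7e-188. The same gene stood at 0.595, 1.342 and 1.06 FPKM in the untreated leaves and at 6.31, 5.93 and 4.05 FPKM with nanoparticles alone. The Cd libraries thus lay within the range of the untreated ones, the SeNP libraries lay above both, and the CdSeNP libraries lay far above all others. A second dehydrin, LEA (LOC111918254), was much less abundant at 0.429 ± 0.10 FPKM in Cd and 1.14 ± 0.19 FPKM in CdSeNP (SD, n = 3 each).

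Genes that remove abscisic acid or restrain its signal were among the higher genes. CYP707A2 (LOC111898519, chromosome 3, 29214830 to 29217818, minus strand), the 8'-hydroxylase that inactivates abscisic acid, was at 66.8, 60.6 and 59.8 FPKM in Cd and 175, 160.1 and 151 FPKM in CdSeNP. Its log2 fold change was 1.42 (standard error 0.065) and the adjusted p 2.9e-103, both from the authors' deposited table. Protein phosphatases of type 2C, a family whose best-known members restrain abscisic acid signalling, rose at 3 genes. LOC111877999 was at 89.8 ± 5.79 FPKM in Cd and 181 ± 11 FPKM in CdSeNP, and LOC111877213 at 62.5 ± 2.1 and 138 ± 11.7 FPKM. LOC111905914, the least abundant of these phosphatases, went from 16 ± 1.08 to 31.1 ± 2.8 FPKM (SD, n = 3 for each value). Mitogen-activated protein kinase kinase kinase 20 (LOC111879169) is also matched by the list's words, and rose from 36.9 ± 2.86 to 81.6 ± 4.88 FPKM.

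Dehydration-responsive element-binding factors (DREB), AP2/ERF proteins that switch on cold and drought genes, were higher at all 5 genes of that name in the table. A pair of neighbours on chromosome 9 were the most abundant. LOC111901694 was at 46.2, 40.2 and 41.4 FPKM in Cd and 111, 105 and 94.3 FPKM in CdSeNP, and LOC111901693 (DREB1D) at 38.8, 34.9 and 35.7 FPKM in Cd and 76.1, 84.5 and 75.3 FPKM in CdSeNP. At both genes every CdSeNP library exceeded every Cd library. The DREB2-type gene LOC111919681, whose Arabidopsis relative responds to drought and heat, rose from 7.54 ± 0.553 to 14.8 ± 1.84 FPKM. Late embryogenesis abundant proteins, which like dehydrins protect drying cells, were called at LOC111892505 and LOC111913774, at 4.82 ± 0.21 and 1.8 ± 0.114 FPKM in CdSeNP, and neither refit kept the call of LOC111913774.

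Calcium sensors and signalling genes were a second group in which every called gene was higher, 8 of 8, with a median log2 fold change of 1.31. The same words match 4 uncalled genes, 3 of them below 0, with a median log2 difference of -0.55, namely a calcium-dependent protein kinase 26 copy, a pair of exchangers and the channel LOC111902252, at -0.60 (95% interval -0.97 to -0.23). CML38 and CML39 are small calmodulin-like proteins whose Arabidopsis counterparts respond to wounding, low oxygen and other stresses. The more abundant of both CML38 genes (LOC111877562, chromosome 3, 207347800 to 207348562, plus strand) was at 25.6, 21.6 and 22.7 FPKM in Cd and 81.5, 81.5 and 72.5 FPKM in CdSeNP, a log2 fold change of 1.79 (standard error 0.083, adjusted p 1.5e-99 in the authors' deposited table). CML39 (LOC111892932) was at 30.1, 28 and 29.1 FPKM in Cd and 89.2, 85.9 and 77.4 FPKM in CdSeNP, with a log2 fold change of 1.58. The lowest CdSeNP library exceeded the highest Cd library by more than the whole spread within either group at both genes. CML24 (LOC111876847), the most abundant of the calcium genes, rose from 80.05 ± 3.66 to 175 ± 10.7 FPKM. Adjacent genes for the calcium-binding protein CP1 on chromosome 6 rose together, LOC111914173 from 30.01 ± 2.22 to 68.9 ± 3.49 FPKM and LOC111914172 from 7.12 ± 0.722 to 17.7 ± 1.56 FPKM. Calcium-dependent protein kinase 26 (LOC111909345), which passes the calcium signal on by phosphorylation, rose from 22.4 ± 2.59 to 51.9 ± 5.02 FPKM. The glutamate receptor 2.8 (LOC111919983), of a family of plant calcium-permeable channels, rose from 1.61 ± 0.123 to 4.73 ± 0.537 FPKM.

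Proteins of the plasma membrane that accompany defence signalling also rose. Syntaxin-121 (LOC111898570, chromosome 2, 129687677 to 129689002, minus strand), a membrane fusion protein needed for secretion and penetration resistance in Arabidopsis, was at 4.98, 3.58 and 4.4 FPKM in Cd and 16, 16.5 and 14.4 FPKM in CdSeNP (log2 fold change 1.90, standard error 0.12, adjusted p 5.5e-52 in the authors' deposited table). SRC2 proteins, which carry a calcium- and lipid-binding C2 domain, rose at 3 genes, LOC111900013, LOC111916010 and LOC111903208, to 114 ± 11.2, 116 ± 8.41 and 20.3 ± 1.27 FPKM. NDR1/HIN1-like genes, relatives of a membrane protein of disease resistance, rose at 3 genes to between 16.6 and 62.7 FPKM. The SRC2 and NDR1/HIN1-like genes were grouped after their values were seen. All 6 of them had CdSeNP libraries above all Cd libraries, as had 247 of all 251 higher genes, so this follows largely from the selection. Among uncalled genes with values, 49.9% did not overlap in either direction.

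Transcription factors leaned to the higher side. The authors' family annotation names 43 transcription factors among the 433 genes, of which 34 were higher and 9 lower, while 58.0% of the whole table was higher. AP2/ERF factors were 11 higher and 1 lower, C2H2 zinc fingers 5 higher and none lower, and WRKY and NAC factors 4 higher each and none lower. WRKY31 (LOC111891013) was at 4.95, 4.94 and 4.87 FPKM in Cd and 16.6, 14 and 13.7 FPKM in CdSeNP, and WRKY53 (LOC111890844), whose Arabidopsis counterpart acts in leaf senescence, at 46.5, 43.8 and 45 FPKM in Cd and 102, 91 and 84.9 FPKM in CdSeNP. The called WRKY and NAC genes of the word list were all higher, 8 of 8, with a median log2 fold change of 1.09. The NAC factor JA2L (LOC111904868), whose tomato counterpart acts in stomatal reopening, rose from 17.7 ± 1.06 to 35.6 ± 1.71 FPKM.

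ERF109, an AP2/ERF factor linked in Arabidopsis to wounding and redox stress, rose at the 2 genes of that name in the table. The more abundant of them (LOC111877684, chromosome 5, 263559008 to 263559993, plus strand) was at 46.5, 44.8 and 50.6 FPKM in Cd and 112, 101.5 and 97.8 FPKM in CdSeNP, and the other (LOC111916467) at 2.67, 1.75 and 2.05 FPKM in Cd and 6.87, 5.53 and 4.83 FPKM in CdSeNP. Another ERF109 gene (LOC111903160) was not called, at 58.8 ± 3.5 FPKM in Cd and 113 ± 4.4 FPKM in CdSeNP, a log2 difference of 0.99 (95% interval 0.82 to 1.16). It was the highest of 10 uncalled genes in the list of ethylene synthesis and response factors. Of these 10, 4 lay above 0 and 6 below, with a median log2 difference of -0.17. The called genes of that list were 6 higher and 2 lower. ERF025 (LOC111900419) rose from 8.07 ± 0.571 to 17.2 ± 1.25 FPKM. The zinc fingers ZAT10, ZAT11 and ZAT12, whose Arabidopsis counterparts respond to reactive oxygen and abiotic stress, were all higher, and the neighbouring ZAT12 genes LOC111897061 and LOC111897062 reached 57.5 ± 4.01 and 53.3 ± 1.2 FPKM from 28.4 ± 1.19 and 26.4 ± 1.08 FPKM. Scarecrow-like protein 21 (LOC111914874), a GRAS factor, rose from 60.6 ± 2.18 to 132 ± 11.9 FPKM and MYB17 (LOC111912895) from 10.1 ± 0.436 to 23.7 ± 2.61 FPKM. RADIALIS-like 3 (LOC111890307), of the MYB-related proteins, rose from 4.86 ± 0.585 to 10.2 ± 0.957 FPKM and so reached the untreated level of 10.04 ± 1.12 FPKM. Among the few factors that fell were squamosa promoter-binding-like protein 8 (LOC111896001), from 1.54 ± 0.292 to 0.332 ± 0.0406 FPKM, and zinc finger protein 7 (LOC111877108), from 9.29 ± 1.3 to 2.46 ± 1.21 FPKM. TCP18 (LOC111915730), whose Arabidopsis counterpart holds back axillary buds, fell from 1.72 ± 0.201 to 0.715 ± 0.191 FPKM.

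Called genes of immune recognition were mostly higher. The word list of receptor-like kinases and immune receptors counted 22 higher and 4 lower of 26 genes, with a median log2 fold change of 1.07. Its words also matched the SRC2 gene LOC111903208, given above with the membrane proteins, so not every gene counted is a receptor. In the authors' KEGG assignments, plant-pathogen interaction held 25 genes with 24 higher, plant hormone signal transduction 29 genes with 24 higher, and MAPK signalling 9 genes that were all higher. The receptor-like cytoplasmic kinase PCRK1 (LOC111894087), which acts in pattern-triggered immunity in Arabidopsis, was at 58.2, 53.2 and 54.6 FPKM in Cd and 123, 110.5 and 101.2 FPKM in CdSeNP. THESEUS 1 (LOC111895468), a receptor kinase that senses cell wall integrity, rose from 6.13 ± 0.559 to 12.5 ± 0.847 FPKM. The disease resistance genes LOC111883453 and LOC111883452, 29879 bases apart on chromosome 2, rose from 13.1 ± 0.541 to 27.6 ± 1.77 FPKM and from 1.56 ± 0.152 to 5.0 ± 0.385 FPKM. Endochitinase EP3 (LOC111901424), an enzyme that cleaves fungal chitin, rose from 19 ± 1.59 to 41.6 ± 2.29 FPKM. Thaumatin-like proteins went the other way, LOC111913359 from 4.59 ± 0.383 to 1.93 ± 0.183 FPKM. The list of chitinases, pathogenesis-related and other defence proteins counted 12 higher and 7 lower. Its share of higher genes was 63.2%, near the 58.0% of the whole table. Of its 8 uncalled genes, 2 lay above 0 and 6 below, with a median log2 difference of -0.23.

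U-box ubiquitin ligases, which mark proteins for degradation and in Arabidopsis dampen immune and drought signalling, were higher at all 7 called genes of that kind, a group assembled after their values were seen. U-box protein 21 (LOC111904386, chromosome 8, 49450910 to 49452603, plus strand) was at 36.4, 35.3 and 33.6 FPKM in Cd and 103, 90.9 and 90.9 FPKM in CdSeNP, with a log2 fold change of 1.48 (standard error 0.065, adjusted p 1.4e-111 in the authors' deposited table). PUB22 (LOC111898568) was at 26.1, 23 and 24.3 FPKM in Cd and 73.5, 64.6 and 60.2 FPKM in CdSeNP, and lies 13711 bases from a PUB23 gene (LOC111898569) that rose from 8.59 ± 0.998 to 20.8 ± 2.01 FPKM. Outside the U-box group, proteases and ubiquitin ligases were mixed, and the whole list counted 15 higher and 9 lower. The F-box protein VBF (LOC111884246) rose from 104 ± 2.12 to 219 ± 21.9 FPKM, whereas the cysteine protease RD19A (LOC111912452) fell from 9.75 ± 4.15 to 3.86 ± 0.787 FPKM, a call that neither refit kept.

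**Figure D2:**
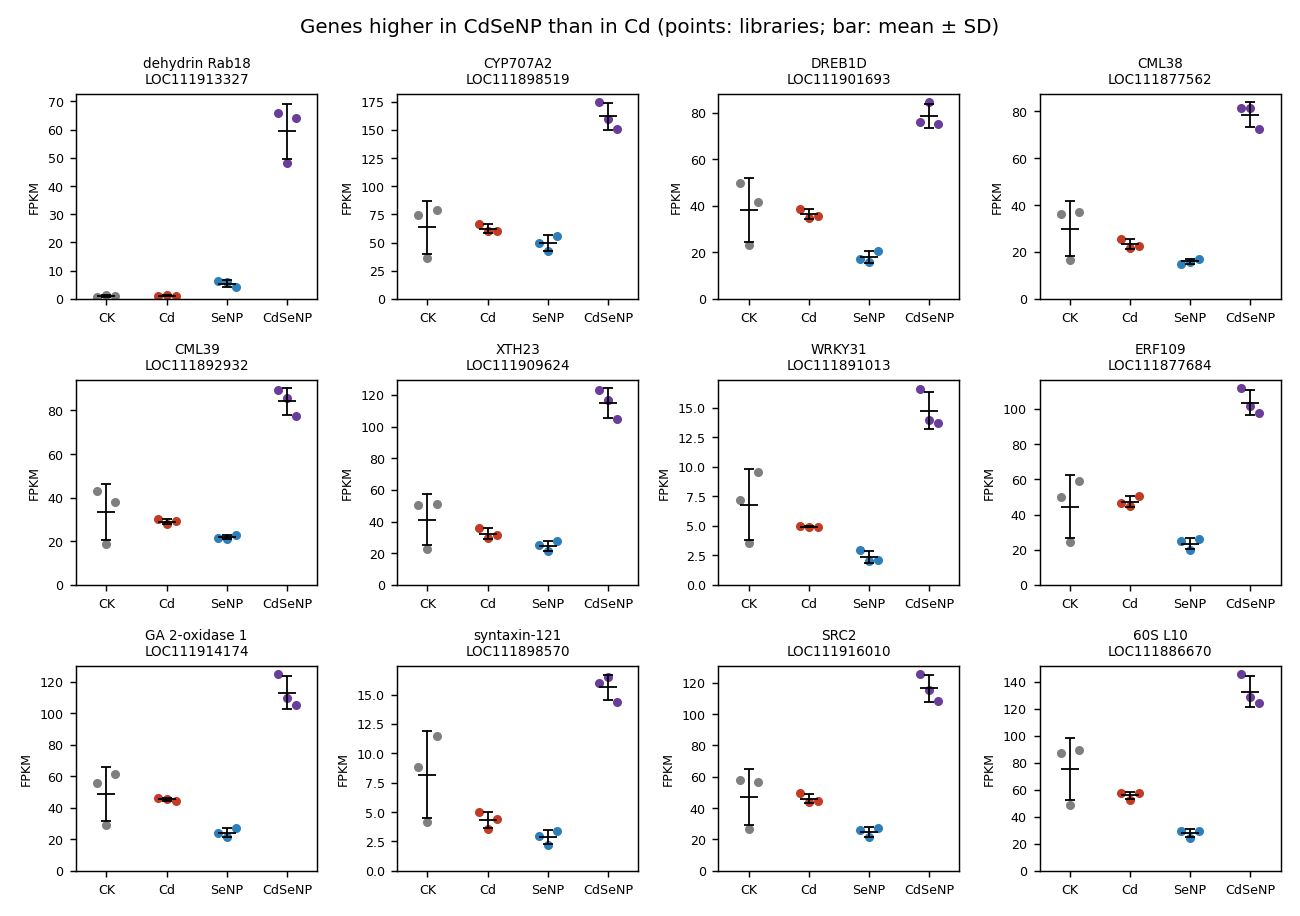
FPKM of 12 genes called higher in CdSeNP than in Cd, in each of the 12 libraries (points) with the mean and SD of each group (bars), on linear axes that start at 0. In every panel the 3 CdSeNP libraries lie above the 3 Cd libraries, and CK 2 is the lowest CK library in all panels but Rab18.

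Several enzymes that inactivate or conjugate hormones rose beside the abscisic acid hydroxylase, while 3 called GH3 genes fell. Gibberellin 2-beta-dioxygenase 1 (LOC111914174, chromosome 7, 182217359 to 182219131, minus strand), which deactivates gibberellins, was at 46.4, 45.7 and 44.2 FPKM in Cd and 125, 110.0 and 105 FPKM in CdSeNP (log2 fold change 1.36, standard error 0.067, adjusted p 2.2e-87 in the authors' deposited table). GH3.1 (LOC111877163), an enzyme that joins auxin to amino acids, was at 16, 13.9 and 15.1 FPKM in Cd and 39.9, 39.6 and 36.9 FPKM in CdSeNP. Cytokinin dehydrogenase 5 (LOC111915756), which degrades cytokinins, rose from 6.86 ± 0.246 to 14 ± 1.27 FPKM. For jasmonate, chloroplast lipoxygenase 1 (LOC111921376), an enzyme of fatty acid oxidation, rose from 31.1 ± 1.75 to 70.8 ± 6.0 FPKM and the repressor TIFY 9 (LOC111912330) from 42.2 ± 3.07 to 85 ± 7.33 FPKM. Cytochrome P450 94B3 (LOC111920155), which hydroxylates the active jasmonate conjugate, rose from 2.58 ± 0.523 to 5.15 ± 0.499 FPKM. The jasmonate list counted 4 higher genes and 1 lower gene, the lower one at a log2 fold change of -1.48. Of its 8 uncalled genes, 4 lay above 0 and 4 below, with a median log2 difference of 0.01. They ranged from -0.65 (95% interval -0.998 to -0.299) at jasmonate-induced oxygenase 2 (LOC111901270) to 0.94 (95% interval 0.51 to 1.38) at TIFY 5A (LOC111880744). The authors' table calls 3 other GH3 genes lower. Of these, GH3.6 (LOC111901018) went from 1.0 ± 0.344 to 0.379 ± 0.092 FPKM, LOC111896378 from 1.59 ± 0.599 to 0.71 ± 0.261 FPKM, and LOC111902750 from 1.61 ± 0.607 to 0.77 ± 0.142 FPKM. A DESeq2 refit kept these 3 calls and edgeR kept none of them. ACC oxidase 3 (LOC111921123), which makes ethylene, fell from 2.18 ± 0.275 to 0.811 ± 0.195 FPKM. The list of auxin, gibberellin, cytokinin and brassinosteroid genes counted 5 higher and 6 lower.

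Cell wall genes were evenly divided, 10 higher and 10 lower of 20, but the sides held different enzymes. Xyloglucan endotransglucosylase/hydrolase 23 (XTH23), which cuts and rejoins the xyloglucan that ties cellulose together, was higher at all 6 of its genes in the table, and 5 of these lie in a row on chromosome 8 with gaps of 21325 to 83461 bases between them. LOC111909624 was at 36.1, 29.6 and 31.2 FPKM in Cd and 123, 117 and 105 FPKM in CdSeNP, and LOC111909626 at 44.9, 38.7 and 37.9 FPKM in Cd and 144, 133 and 117 FPKM in CdSeNP. LOC111909625 was at 16.1, 13.5 and 15.8 FPKM in Cd and 62.2, 60.4 and 53.3 FPKM in CdSeNP, a log2 fold change of 2.00 (standard error 0.087, adjusted p 6.0e-113 in the authors' deposited table). LOC111909622 rose from 17.8 ± 1.3 to 63.5 ± 7.77 FPKM and the least abundant neighbour, LOC111909618, from 1.56 ± 0.427 to 3.97 ± 0.542 FPKM. These neighbours carry the same description, and reads of near-identical copies could be divided between them, so the level of 1 copy is uncertain. The xylan glycosyltransferase MUCI21 (LOC111887581), which decorates xylan, rose from 85 ± 8.61 to 195 ± 16.3 FPKM, and the leucine-rich repeat extensin-like protein 5 (LOC111884960) from 3.76 ± 0.308 to 11.9 ± 0.446 FPKM. On the lower side stood expansins, which loosen walls during growth, with expansin-A4 (LOC111898216) going from 29.8 ± 1.57 to 14.3 ± 0.713 FPKM and expansin-A15 (LOC111877762) from 3.32 ± 1.15 to 1.16 ± 0.335 FPKM, the latter not called with edgeR. Extensins 2 and 3, pectinesterases, a polygalacturonase and endoglucanase 11 (LOC111912031) were also lower, the last falling from 3.87 ± 0.111 to 1.38 ± 0.40 FPKM.

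The XTH23 row was one of several clusters. Of 432 genes placed on a chromosome, 67 lay within 100 kb of another gene of the table, in 38 neighbouring pairs, of which 33 had the same direction, 31 of them both higher. A row of 6 cupredoxin genes on chromosome 5, small copper proteins of the cell surface, was higher throughout, with LOC111881903 rising from 5.63 ± 0.633 to 15.2 ± 1.32 FPKM and LOC111881909 from 2.41 ± 0.139 to 6.44 ± 0.338 FPKM. These genes were grouped after their values were seen. Outside the group, an uncalled basic blue protein gene (LOC111904155) had a log2 difference of -0.58 (95% interval -0.86 to -0.30). An uncalled blue copper protein gene (LOC111911682) was at -0.51 (95% interval -0.81 to -0.21). Class III peroxidases, secreted enzymes that use hydrogen peroxide to cross-link walls, were 5 higher and 1 lower. Peroxidase N1 (LOC111896402) was at 96.7, 93.6 and 97.2 FPKM in Cd and 206, 190.4 and 181 FPKM in CdSeNP, and the lignin-forming anionic peroxidase (LOC111908979) at 31.1, 32.1 and 34.4 FPKM in Cd and 68.7, 72.3 and 62.9 FPKM in CdSeNP. Peroxidase 3 (LOC111904350) fell from 3.51 ± 0.412 to 1.31 ± 0.377 FPKM. The chloroplast chaperones dnaJ 11 (LOC111888104) and dnaJ 20 (LOC111904415) rose from 9.93 ± 0.472 to 29.5 ± 1.54 FPKM and from 5.58 ± 0.465 to 13.1 ± 1.26 FPKM. The list of heat shock proteins and chaperones also matched 3 uncalled genes, all 3 below 0, with a median log2 difference of -0.61. Among them, the chloroplast dnaJ C76 (LOC111886184) was at -0.12 (95% interval -0.29 to 0.05).

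The 5 most abundant genes of the table were 4 higher genes and 1 lower one. Aquaporin TIP1-1 (LOC111893041, chromosome 1, 64655984 to 64657555, plus strand), a water channel of the vacuole membrane, was at 280.0, 257 and 298 FPKM in Cd and 601, 543 and 511 FPKM in CdSeNP. Nudix hydrolase 17 (LOC111916179) was at 259, 252 and 271 FPKM in Cd and 642, 562 and 537 FPKM in CdSeNP, and zinc finger CCCH protein 29 (LOC111896805) at 182, 164 and 181 FPKM in Cd and 384, 342 and 330.3 FPKM in CdSeNP. ROH1 (LOC111906501) rose from 126 ± 3.62 to 257 ± 26 FPKM. Their log2 fold changes were all close to the lower limit of the table, between 1.03 and 1.20. The lower gene, major latex allergen Hev b 5 (LOC111890953), was at 230.2, 230.2 and 253 FPKM in Cd and 64.9, 81.9 and 122 FPKM in CdSeNP.

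The genes that fell included several surface and small secreted proteins. All 8 called genes of the list of epidermis, cuticle and lipid transfer were lower, with a median log2 fold change of -1.58 against -1.27 over all 182 lower genes. Non-specific lipid-transfer proteins are small secreted proteins that carry lipids towards the cuticle and also serve in defence. Lipid-transfer protein 1 (LOC111887989, chromosome 5, 314516434 to 314517267, plus strand) was at 79.9, 163 and 141 FPKM in Cd and 29.4, 46.5 and 47.3 FPKM in CdSeNP, and Cw18 (LOC111882013) at 53.4, 29.3 and 24 FPKM in Cd and 5.71, 8.73 and 13.1 FPKM in CdSeNP. LOC111915888 was at 15.6, 17.2 and 25.3 FPKM in Cd and 2.84, 2.71 and 8.76 FPKM in CdSeNP. The groups did not overlap at these 3 genes, but at each of them 1 library of a group lay far from the other 2. GDSL esterases, a family that includes cutin synthases, fell at LOC111886836 from 5.07 ± 1.52 to 1.53 ± 0.209 FPKM and at LOC111886847 from 20.9 ± 7.2 to 6.86 ± 0.523 FPKM. Protodermal factor 1 (LOC111914646), a marker of the outer cell layer in Arabidopsis, fell from 27 ± 5.51 to 12.1 ± 2.19 FPKM. EPIDERMAL PATTERNING FACTOR-like protein 2 (LOC111906385), of a family of secreted peptides that pattern the epidermis, was at 0.917, 2.05 and 1.3 FPKM in Cd and 0.488, 0.408 and 0.934 FPKM in CdSeNP, with overlapping groups, and neither refit kept its call. With edgeR 5 of the 8 genes of this list passed the same limits.

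Proline-rich proteins of the DC2.15 type, small wall proteins first found in carrot, fell at 3 genes. LOC111919370 was at 261, 196 and 191 FPKM in Cd and 72.7, 80.1 and 98.8 FPKM in CdSeNP, and LOC111877070 at 3.69, 2.99 and 2.9 FPKM in Cd and 0.228, 0.597 and 0.944 FPKM in CdSeNP. LOC111904704 was at 10.7, 2.3 and 4.94 FPKM in Cd and 0.167, 0.292 and 1.65 FPKM in CdSeNP, and with a log2 fold change of -3.05 (standard error 1.1, adjusted p 2.2e-02 in the authors' deposited table) its standard error was among the 5 largest of the table. Neither refit kept the call of LOC111904704. Kirola and other Bet v 1 proteins, which bind small plant metabolites in a hydrophobic pocket, were lower at all 7 genes of the table, with a median log2 fold change of -2.01, in a group assembled after its values were seen. An uncalled kirola gene (LOC111899314) had a log2 difference of 0.64 (95% interval 0.28 to 0.99). LOC111920935 was at 5.3, 5.0 and 4.81 FPKM in Cd and 0.642, 1.1 and 1.83 FPKM in CdSeNP, and LOC111887588 at 5.79, 6.43 and 7.12 FPKM in Cd and 1.7, 1.3 and 3.06 FPKM in CdSeNP. The putative cell wall protein LOC111899681 fell from 6.37 ± 3.0 to 1.68 ± 0.222 FPKM and the snakin-type peptide peamaclein (LOC111902782) from 7.81 ± 0.369 to 1.97 ± 1.11 FPKM.

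Levels of cell type markers are given beside these changes. Over the 13 genes of epidermis and cuticle that have values in both groups, 8 of them the called genes above, the summed level lay between 326 and 349 FPKM in the Cd libraries and between 116 and 163 FPKM in the CdSeNP libraries. The 5 uncalled ones among them, which were not chosen as lower, summed to 52.6 to 55.1 FPKM in Cd and 45.4 to 49.7 FPKM in CdSeNP, with a median log2 difference of -0.17. Most of the difference in the sum thus lay in the 8 genes selected as lower. Of the 5 uncalled genes, 1 lay above 0 and 4 below. CER3 (LOC111881720) and ECERIFERUM 26 (LOC111905151), both of wax synthesis, had log2 differences of 0.07 (95% interval -0.14 to 0.29) and -0.13 (95% interval -0.36 to 0.11). The uncalled GDSL esterases LOC111879128 and LOC111891193 were at -0.72 (95% interval -1.27 to -0.18) and -0.59 (95% interval -1.18 to 0.01). The 33 genes of DNA replication and mitosis summed to 284 to 376 FPKM in Cd and 184 to 229 FPKM in CdSeNP, and the 30 uncalled ones among them to 275 to 363 and 180.2 to 222 FPKM. The 28 genes of photosynthesis, which define mesophyll, summed to 13463 to 14431 FPKM in Cd and 13256 to 13842 FPKM in CdSeNP, and these ranges overlap. Guard cell words matched 2 genes (19.6 to 21.0 FPKM in Cd, 16.2 to 17.1 FPKM in CdSeNP) and xylem words 2 genes (1.75 to 2.69 and 1.21 to 1.64 FPKM). The 4 genes matched by phloem words (137 to 158 FPKM in Cd, 239.5 to 285 FPKM in CdSeNP) were dominated by the F-box protein VBF, and the 4 matched by root words (270.3 to 314 and 521 to 609 FPKM) by aquaporin TIP1-1, which leaves also express. No gene of these lists was at 0 in all 6 libraries. In bulk leaf RNA, fewer cells of a type and less RNA per cell cannot be told apart, and the part of a changed cell make-up in these results was not tested.

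All 4 called genes of the list of nitrate, ammonium and amino acid metabolism were lower, while 4 of its 5 uncalled genes with values lay above 0, with a median log2 difference of 0.28. Nitrate reductase, which turns nitrate into nitrite, fell at both genes of the table. LOC111902813 (chromosome 7, 171656429 to 171660848, plus strand) was at 6.82, 5.33 and 6.66 FPKM in Cd and 1.37, 1.03 and 1.18 FPKM in CdSeNP, with a log2 fold change of -2.35 (standard error 0.14, adjusted p 3.7e-57 in the authors' deposited table). LOC111893654, the more abundant of the pair, was at 33.4, 24.9 and 29.3 FPKM in Cd and 9.89, 11.9 and 11.3 FPKM in CdSeNP. Both were apart from the Cd libraries without overlap, and both calls held with edgeR and DESeq2. NPF3.1 (LOC111894372), a transporter of nitrite and gibberellin in Arabidopsis, was at 4.14, 4.61 and 4.85 FPKM in Cd and 1.37, 1.39 and 1.8 FPKM in CdSeNP. The pair differed in where untreated leaves stood, with LOC111902813 at 1.26 ± 0.127 FPKM in CK and 0.254 ± 0.155 FPKM in SeNP, and LOC111893654 at 44.1 ± 7.23 and 19.1 ± 3.24 FPKM.

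Few genes of metal balance were in the table, and the 3 called genes of the metal transport list were lower. Another 12 genes of that list were not called, 7 of them above 0, with a median log2 difference of 0.07. They include a second vacuolar iron transporter homolog 4 (LOC111899502), at 0.166 ± 0.0819 FPKM in Cd and 0.412 ± 0.135 FPKM in CdSeNP, and a zinc transporter 1 (LOC111880346), whose log2 difference was 0.22 (95% interval -0.09 to 0.54). Zinc transporter 1 (LOC111897073), of the ZIP family that also admits cadmium, was at 4.95, 4.27 and 3.86 FPKM in Cd and 1.29, 1.52 and 2.21 FPKM in CdSeNP, and zinc transporter 5 (LOC111893633) at 2.8, 1.99 and 1.76 FPKM in Cd and 0.844, 0.936 and 1.07 FPKM in CdSeNP. Vacuolar iron transporter homolog 4 (LOC111899495) was at 17.1, 10.1 and 9.82 FPKM in Cd and 3.93, 4.27 and 6.52 FPKM in CdSeNP. Their levels in untreated leaves were 0.747 ± 0.101, 0.457 ± 0.262 and 2.33 ± 0.845 FPKM, so the CdSeNP libraries lay between the untreated and the Cd libraries. Scopoletin 8-hydroxylase (LOC111902368), which makes the iron-mobilising coumarin fraxetin in Arabidopsis, was at 1.33, 2.84 and 1.68 FPKM in Cd and 0.0976, 0.034 and 0.566 FPKM in CdSeNP, at low level and with unequal replicates, and the DESeq2 refit did not keep its call. Sulfate transporter 3.5 (LOC111897966), the only called gene matched by the sulphur and selenium list, fell from 14.6 ± 5.57 to 5.4 ± 1.36 FPKM. That list also matched 2 uncalled genes, both above 0, with a median log2 difference of 0.23. The larger difference was 0.44 (95% interval 0.26 to 0.61) at LOC111882123. No gene of metal chelation, such as a metallothionein or phytochelatin synthase, was called.

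Among redox and respiratory genes, the alternative oxidase ubiquinol oxidase 2 (LOC111897513), which passes electrons to oxygen in mitochondria without making ATP, was at 40.8, 36.6 and 45.6 FPKM in Cd and 16.3, 15.6 and 16.8 FPKM in CdSeNP. Its log2 fold change was -1.29 (standard error 0.086, adjusted p 1.5e-48 in the authors' deposited table). An ascorbate oxidase homolog (LOC111914968) rose from 11.1 ± 1.18 to 22.6 ± 1.51 FPKM, and no superoxide dismutase, catalase or ascorbate peroxidase was called. Glutaredoxin-C13 (LOC111910822) was the only called gene of the glutathione and thioredoxin list, at 0.679, 1.01 and 0.824 FPKM in Cd and 1.79, 1.6 and 1.5 FPKM in CdSeNP. Its log2 fold change of 1.00 was the value nearest to the limit of the table, and neither refit kept its call. The same list matched 5 uncalled genes, all 5 below 0, with a median log2 difference of -0.54.

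**Figure D3:**
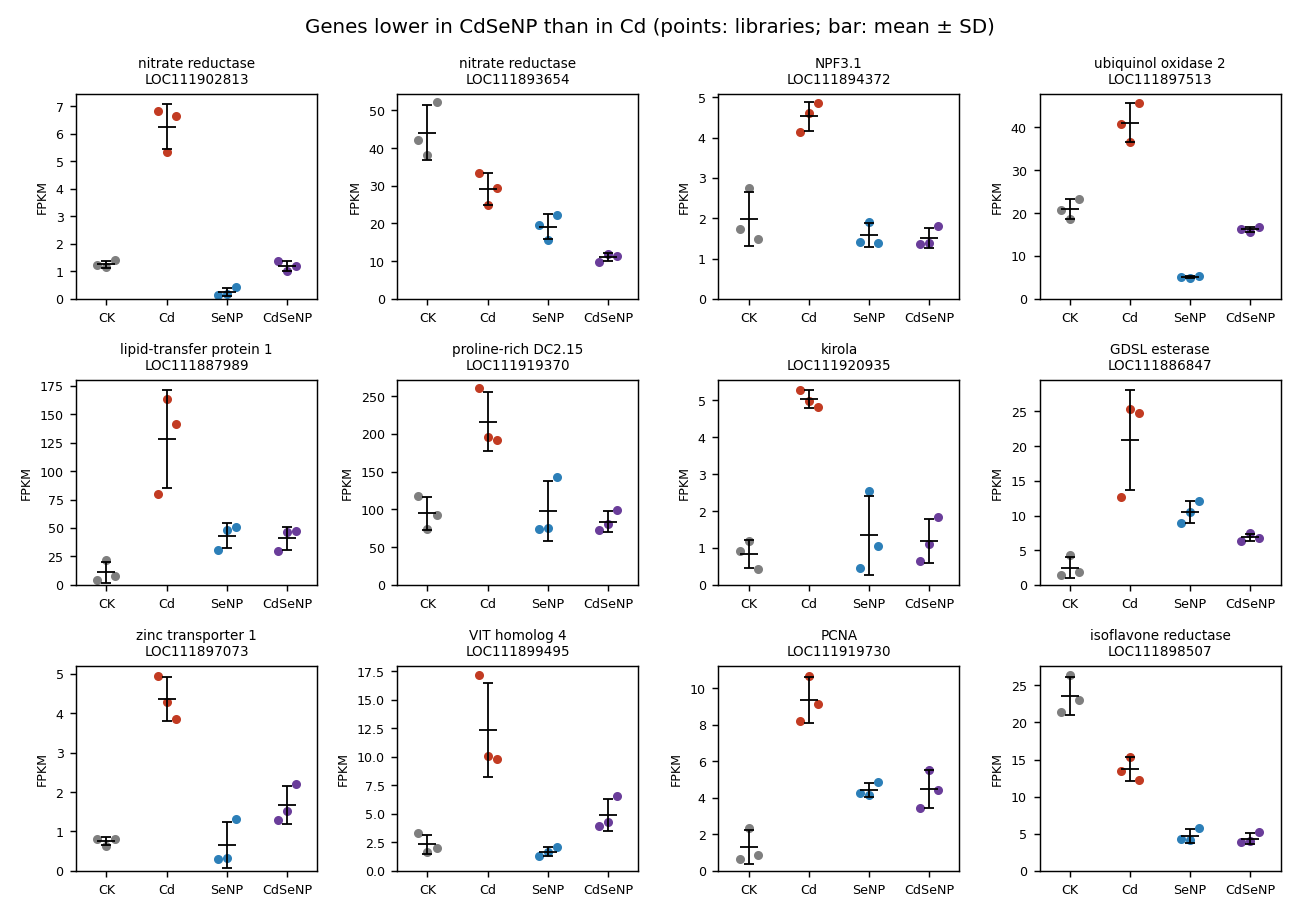
FPKM of 12 genes called lower in CdSeNP than in Cd, in each of the 12 libraries (points) with the mean and SD of each group (bars), on linear axes that start at 0. In every panel the 3 CdSeNP libraries lie below the 3 Cd libraries, while the place of the CK libraries differs from gene to gene.

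Genes of specialised and carbon metabolism were mixed, with few members each. The list of phenylpropanoid, lignin and flavonoid genes counted 2 higher and 4 lower, while the authors' KEGG assignments put 8 higher and 1 lower gene in phenylpropanoid biosynthesis. An isoflavone reductase homolog (LOC111898507) was at 13.5, 15.4 and 12.2 FPKM in Cd and 3.88, 3.99 and 5.22 FPKM in CdSeNP, and chalcone synthase J (LOC111882072), which opens flavonoid synthesis, at 1.29, 3.36 and 2.01 FPKM in Cd and 0.962, 0.946 and 0.66 FPKM in CdSeNP, not called with edgeR. The anthocyanidin galactosyltransferase F3GT1 (LOC111884088) fell from 4.62 ± 0.292 to 2.13 ± 0.0649 FPKM, whereas cinnamoyl-CoA reductase 1 (LOC111889537), of the lignin pathway, rose from 6.05 ± 0.33 to 11.7 ± 1.19 FPKM. Cytochromes P450 were divided, 6 higher and 5 lower with the terpene synthases, and cytochrome P450 71AV8 (LOC111906166) rose from 8.8 ± 0.314 to 17.4 ± 1.38 FPKM. Soluble beta-fructofuranosidase (LOC111877668), the vacuolar invertase that splits sucrose, fell from 24.1 ± 3.25 to 8.35 ± 1.74 FPKM, and trehalose-phosphate phosphatase D (LOC111899324) rose from 10.4 ± 1.07 to 25.3 ± 2.01 FPKM. The delta(8)-fatty-acid desaturase (LOC111876796), of sphingolipid synthesis, rose from 20.5 ± 0.613 to 48.8 ± 2.22 FPKM, and triacylglycerol lipase OBL1 (LOC111896675) fell from 17.6 ± 1.14 to 6.4 ± 1.51 FPKM. For phosphate, glycerol-3-phosphate transporter 1 (LOC111901625) fell from 20.6 ± 0.921 to 9.34 ± 0.913 FPKM and anion transporter 3 (LOC111906761) from 1.96 ± 0.111 to 0.927 ± 0.306 FPKM. The root-type aquaporin RB7-5A (LOC111891616) fell from 12.2 ± 3.87 to 4.67 ± 0.663 FPKM, opposite to TIP1-1. A vicilin-like gene (LOC111919377), named after a seed storage protein, was at 39, 34.2 and 37.6 FPKM in Cd and 15.7, 17.6 and 17.7 FPKM in CdSeNP, and at 0.249, 0.469 and 0.35 FPKM in CK and 0.413, 0.547 and 0.781 FPKM in SeNP. Its CdSeNP libraries lay far below Cd but far above the groups without cadmium.

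After Rab18, the largest increases were at genes of low level or with unequal libraries. An uncharacterised gene (LOC111906755) was at 0.042, 0.0815 and 0.0441 FPKM in Cd and 1.54, 1.02 and 1.79 FPKM in CdSeNP, and a NAP1-related gene (LOC111920021), of a family of histone chaperones, at 0.247, 0.40 and 0.216 FPKM in Cd and 4.18, 3.0 and 3.68 FPKM in CdSeNP. Their groups did not overlap. At 3 other genes the increase rests on 2 of the 3 CdSeNP libraries. Ribosomal protein S19-3 (LOC111884917) was at 4.47, 5.84 and 4.3 FPKM in Cd and 37.6, 5.3 and 111 FPKM in CdSeNP. The plastid-type ribosomal protein L2 (LOC128126385) was at 0.945, 0.598 and 0.346 FPKM in Cd and 0.703, 15.2 and 14.4 FPKM in CdSeNP, and eupatolide synthase (LOC111891405), a sesquiterpene lactone enzyme, at 0.0556, 0.018 and 0.0195 FPKM in Cd and 0.0453, 1.02 and 0.906 FPKM in CdSeNP. At each gene 1 CdSeNP library lay among the Cd libraries, so the groups overlap although the authors' table calls them higher. The library was CdSeNP 2 for S19-3 and CdSeNP 1 for the other 2 genes, and of the 3 calls only that of L2 was kept, by the DESeq2 refit alone. The other ribosomal genes of the table were uniform, with L10 (LOC111886670) at 57.4, 52.6 and 57.5 FPKM in Cd and 145, 129 and 124 FPKM in CdSeNP, and acidic protein P2 (a locus the authors added) at 21.7, 20.6 and 21.3 FPKM in Cd and 48.5, 40.7 and 40.6 FPKM in CdSeNP.

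Some gene groups known for cadmium responses were nearly absent from the table. The photosynthesis list matched 1 called gene, a chaperonin that assembles Rubisco (LOC111901465), from 1.64 ± 0.10 to 0.689 ± 0.141 FPKM, and the chlorophyll list matched glutamyl-tRNA reductase 2 (LOC111892988), the entry enzyme of the pathway, from 4.74 ± 0.144 to 10.7 ± 0.577 FPKM. Another 27 photosynthesis genes have values in Cd and CdSeNP through other tables of the study. Their log2 differences in edgeR's fit lay between -0.62 and 0.81, with a median of -0.08, and 9 lay above 0 and 18 below. Some intervals lay wholly on 1 side of 0. A Rubisco small subunit gene (LOC111908253) was at -0.62 (95% interval -0.90 to -0.35). A chlorophyll a-b binding protein gene (LOC111914736) was at -0.42 (95% interval -0.56 to -0.28), and photosystem I subunit XI (LOC111918291) at 0.15 (95% interval 0.03 to 0.28). Photosystem I subunit III (LOC111898563) was at 1525 ± 27.5 FPKM in Cd and 1409 ± 69.7 FPKM in CdSeNP, a log2 difference of -0.07 (95% interval -0.18 to 0.04), beside 3313 ± 92 FPKM in untreated leaves. Genes of the iron-deficiency regulator ORG2 had log2 differences of -0.05 (95% interval -0.26 to 0.17) at LOC111878349, -0.23 (95% interval -0.49 to 0.03) at LOC111878326 and -0.47 (95% interval -0.92 to -0.01) at LOC111878327, the least abundant of them. Oligopeptide transporter 3 (LOC111920790), which moves iron in the phloem, was at 54.8 ± 1.15 and 54.5 ± 3.19 FPKM, a log2 difference of 0.04 (95% interval -0.11 to 0.19). These intervals lie within the 2-fold limit of the table. The 30 uncalled genes of DNA replication and mitosis with values in both groups had a median log2 difference of -0.47, with 27 below 0, against -0.11 over all 469 uncalled genes. MCM2 (LOC111912362), a subunit of the replicative helicase, was at 15.1 ± 2.14 and 7.71 ± 1.29 FPKM, a log2 difference of -0.92 (95% interval -1.23 to -0.61). The called genes of that list were 1 higher, with a log2 fold change of 1.13, and 2 lower. Of the lower ones, a proliferating cell nuclear antigen gene (LOC111919730), the sliding clamp of DNA polymerase, was at 8.22, 10.7 and 9.13 FPKM in Cd and 3.43, 5.52 and 4.45 FPKM in CdSeNP. The other, the kinetochore protein KNL-2 (LOC111897412), was at 1.11 ± 0.336 and 0.424 ± 0.113 FPKM, a call that neither refit kept. The uncalled genes were listed because they differed in some other pair of groups, so they do not stand for all uncalled genes.

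Levels in the untreated and SeNP leaves place the changes. Values in all 12 libraries exist for 128 of the higher and 88 of the lower genes. Over the 128 higher genes, the median log2 difference from the mean of Cd was 1.37, 1.30 and 1.21 in CdSeNP 1 to CdSeNP 3 and -0.51, -0.69 and -0.35 in SeNP 1 to SeNP 3. It was 0.62 in CK 1, 0.71 in CK 3 and -0.38 in CK 2. The untreated libraries therefore did not form 1 level for these genes. CK 2 was the lowest untreated library at 116 of the 128, by a median of 1.05 on the log2 scale below the mean of CK 1 and CK 3, which is about as large as the difference between CdSeNP and Cd. The median SD between replicates of these genes was 0.61 in CK, 0.14 in Cd, 0.19 in SeNP and 0.14 in CdSeNP on the log2 scale. All CdSeNP libraries lay above all other libraries at 91 of the 128. Over the 88 lower genes, the median log2 difference from Cd was between -1.75 and -1.50 in the CK libraries, -1.63 and -1.24 in SeNP and -1.65 and -1.14 in CdSeNP, and all Cd libraries lay above all others at 57 of the 88. Values in all 12 libraries exist only for genes called in several comparisons, and comparisons that share the Cd or CdSeNP libraries are not independent of this one. The counts of 91 and 57 are of genes chosen for the difference between CdSeNP and Cd, which favours them. The same shares over all 575 genes with 12 libraries were not worked out.

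**Figure D4:**
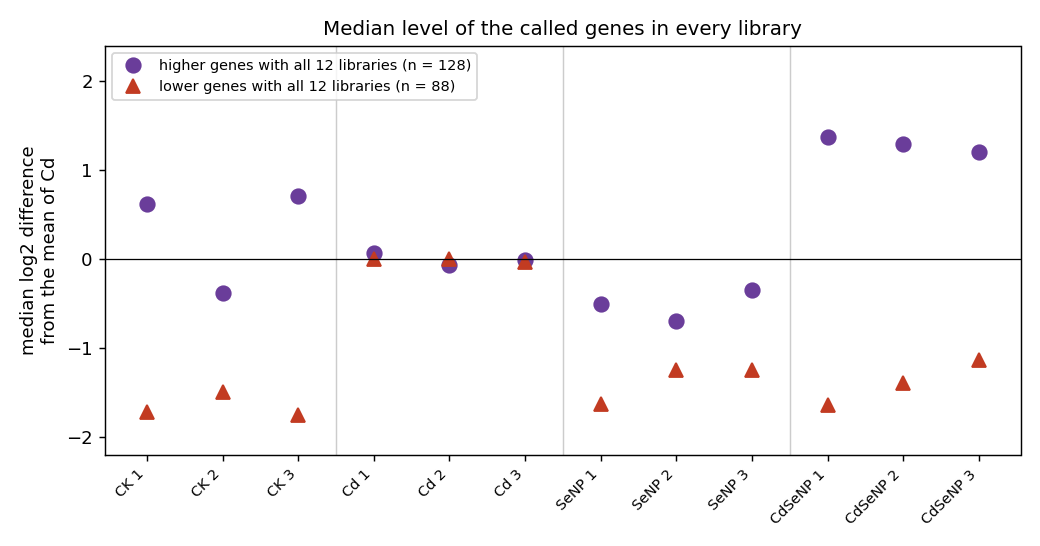
Median over genes of the log2 difference between each of the 12 libraries and the mean of the Cd libraries, for the 128 genes higher (circles) and the 88 genes lower (triangles) in CdSeNP than in Cd that have values in all libraries. CdSeNP libraries lie at 1.21 to 1.37 for the higher genes, and CK 2 lies at -0.38 while CK 1 and CK 3 lie at 0.62 and 0.71.

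The study's other nanoparticle comparison, SeNP against CK, shares no library with CdSeNP against Cd and gives the difference the nanoparticles made without cadmium. Of 22656 genes tested there, the authors called 1.24% higher and 2.07% lower in SeNP. The 2 tables have 90 genes in common, which is 20.8% of the 433 genes and 12% of the 750 genes called in SeNP against CK. Of 251 genes higher in CdSeNP than in Cd, 58 (23.1%) were lower in SeNP than in CK and 3 were higher. The median log2 fold changes of all 61 were 1.22 with cadmium and -1.34 without. Of 182 genes lower in CdSeNP, 16 were also lower in SeNP and 13 were higher. The 58 genes sat at 0.79, -0.09 and 1.02 in CK 1 to CK 3 and at -0.75, -0.95 and -0.67 in SeNP 1 to SeNP 3, as median log2 differences from the mean of Cd, so each SeNP library lay below each CK library. The calls of the 58 depend on the tool and on CK 2. A DESeq2 refit kept 54 of the 58, and edgeR's quasi-likelihood test kept 3 with all libraries, 58 without CK 2, 4 without CK 1, 1 without CK 3 and none when any SeNP library was left out. The 16 and the 13 became 6 and 3 with edgeR, 14 and 11 with the DESeq2 refit, and 15 and 13 with edgeR without CK 2.

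Examples of opposite changes came from several of the function groups. Gibberellin 2-beta-dioxygenase 1 stood at 56.1, 29.1 and 61.4 FPKM in CK 1 to CK 3 and 23.9, 21.6 and 27.5 FPKM in SeNP 1 to SeNP 3, a log2 fold change of -1.04 (adjusted p 2.6e-02 in the authors' deposited table, DESeq2). L10 stood at 87.3, 48.9 and 89.6 FPKM in CK and 29.8, 24.3 and 29.6 FPKM in SeNP, and the chitin-inducible gibberellin-responsive protein 1 (LOC111901011), a GRAS factor, at 48.8, 25.1 and 57.1 FPKM in CK and 18.1, 17 and 20.8 FPKM in SeNP, beside 37.1 ± 2.5 FPKM in Cd and 79.1 ± 5.16 FPKM in CdSeNP. In all 3 genes CK 2 lay nearer to the SeNP libraries than CK 1 and CK 3 did. An uncharacterised gene (LOC111882598) had the same order, with 55.9 ± 19.4 FPKM in CK, 23.7 ± 2.46 in SeNP, 44.8 ± 3.84 in Cd and 102 ± 3.23 in CdSeNP. Rab18 was 1 of the 3 genes that rose in both comparisons, with a log2 fold change of 2.42 (adjusted p 1.6e-10) without cadmium. The others were the plastid-type L2 gene, with overlapping CdSeNP and Cd libraries, and a subunit of oligosaccharyltransferase, STT3A (LOC111909532), at 0.0088, 0.0266 and 0.0271 FPKM in CK, 0.479, 0.47 and 0.392 in SeNP, 0.0554, 0.0307 and 0.0582 in Cd and 0.329, 0.314 and 0.421 in CdSeNP. Among the lower genes, the isoflavone reductase homolog fell in both comparisons, from 23.6 ± 2.56 to 4.7 ± 0.898 FPKM without cadmium, as did ubiquinol oxidase 2, from 20.9 ± 2.34 to 5.09 ± 0.184 FPKM, and both nitrate reductase genes. Lipid-transfer protein 1, the GDSL esterases and the proliferating cell nuclear antigen gene rose without cadmium, LOC111887989 from 11 ± 9.25 to 43.2 ± 11.1 FPKM, LOC111886847 from 2.5 ± 1.52 to 10.5 ± 1.6 FPKM and LOC111919730 from 1.3 ± 0.931 to 4.43 ± 0.373 FPKM. At these 3 genes CK 2 was the highest CK library.

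**Figure D5:**
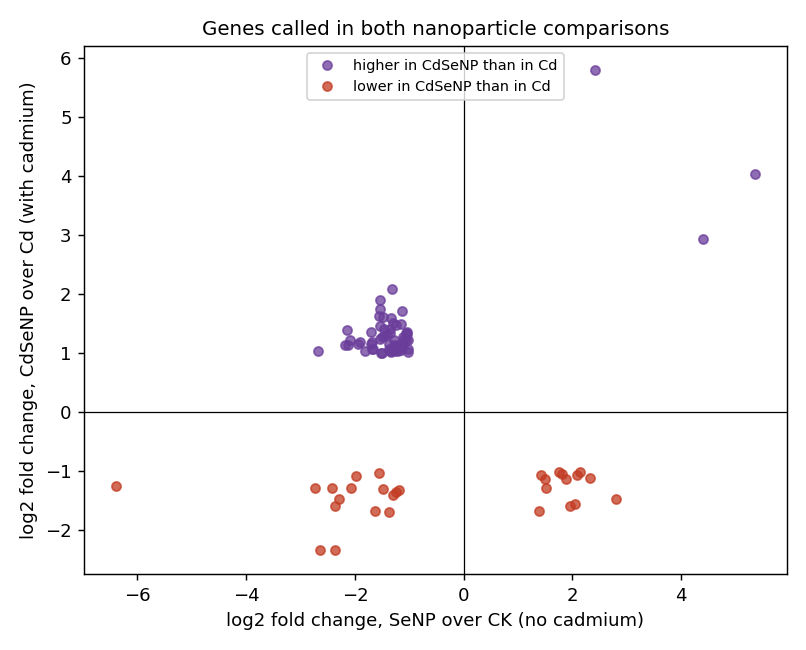
Log2 fold change of SeNP over CK (horizontal) against CdSeNP over Cd (vertical) for the 90 genes called in both comparisons, 1 point per gene, as given in the authors' deposited tables. Most genes higher in CdSeNP, 58 of 61, lie on the left, with lower levels in SeNP than in CK, and Rab18 is the highest point.

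The difference between the nanoparticle effect with and without cadmium was tested as an interaction term in edgeR (quasi-likelihood) over the 575 genes with values in all 12 libraries. Of these genes 73.7% passed an adjusted p of 0.05. Among the 216 genes of the table that could be tested, 182 passed, 123 of 128 higher and 59 of 88 lower ones. The test contains the contrast that selected the genes, so a high share follows in part from the selection, and it is given as a description. At Rab18 the nanoparticle effect with cadmium exceeded that without by 3.38 on the log2 scale (adjusted p 3.7e-05), and at CML38 by 2.74 (adjusted p 5.8e-05). At the nitrate reductase gene LOC111902813 the difference was 0.01 (adjusted p 9.8e-01), with similar decreases in both comparisons, and the zinc transporters 1 and 5 gave -1.07 and 0.66 (adjusted p 1.3e-01 and 3.7e-01). The count of 182 lay between 175 and 185 when single libraries were left out, and was 185 without CK 2 and 175 without CK 3, SeNP 3 or CdSeNP 1.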

How the data were processed

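Poly(A) RNA of 12 leaf libraries (4 groups of 3) was sequenced on an Illumina platform, per the labels' protocols. The submitters' processing notes list Trimmomatic and fastp 0.23.0 for reads, then StringTie 2.2.1, HISAT2 2.2.1 and, for calls, DESeq2 1.34.0. No source used here gives the genome build or the counting and strand settings. Gene positions are those of the deposited tables, and start and end equal those of RefSeq's Lsat_Salinas_v11 for all 403 genes with a RefSeq identifier. The other 30 are loci the authors added.

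The deposited tables hold whole-number counts per gene, FPKM, log2 fold changes, and raw and adjusted p-values made by the authors, listing only genes the authors called (adjusted p under 0.05, absolute log2 fold change over 1). These calls are the main result. The authors' size factors were recovered from counts and fold changes, library totals from counts and FPKM, standard errors from p, and the number of genes tested from the adjusted p-values. Refits used R 4.3.3 with edgeR 4.0.16 (quasi-likelihood), DESeq2 1.42.0 and limma 3.58.1, adjusted by Benjamini-Hochberg over the number of genes the authors tested, and were tested on simulated data. A refit call uses the authors' limits. Tables and figures used Python 3.11.15, pandas 2.3.3 and matplotlib 3.10.9. Values of FPKM are given as mean ± SD of 3 libraries. With 3 against 3 libraries an exact permutation test cannot go below a p of 0.1, so none was used for single genes.

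The members, the 39 function lists and the tests were chosen with earlier results of these data known. Of the lists, 2 were reworded after their matches were read, and 8 were added after values were seen. Lists match words in the descriptions and carry no test. Genes named by rule are the 10 largest increases and decreases with a description, no overlap and at least 5 FPKM in the group with the higher mean, the 2 smallest adjusted p-values of each list with at least 3 genes, the 5 most abundant genes, and the 5 smallest adjusted p-values among genes also called in SeNP against CK. All others named were picked with their values in view.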

Additional observations from a re-analysis of the deposited data

Results flagged for a closer look

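The effect of the nanoparticles with cadmium (CdSeNP minus Cd) differed from their effect without it (SeNP minus CK) at 39 of the named genes, by edgeR's interaction test with Benjamini-Hochberg adjustment over 575 genes. Of all 575 genes, 424 (73.7%) passed the same test, so passing it does not set the named genes apart. Each value below is the first effect minus the second on the log2 scale. The genes were chosen on the first effect, so a difference in that direction is partly built in, and no explanation was tested. CK 2 stood below CK 1 and CK 3 at most of the higher genes, and its part in the differences was not tested beyond leaving it out.

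Among genes higher in CdSeNP, the interaction was 3.38 (LOC111913327) for dehydrin Rab18 and 1.82 (LOC111898519) for the abscisic acid hydroxylase. For calcium and membrane genes it was 2.74 (LOC111877562) at CML38, 2.22 (LOC111892932) at CML39, 2.94 (LOC111919983) at glutamate receptor 2.8, 3.44 (LOC111898570) at syntaxin-121 and 2.62 (LOC111903208) at an SRC2 gene. XTH23 genes gave 2.24 (LOC111909625), 2.60 (LOC111909622), 2.65 (LOC111909624) and 2.08 (LOC111909626). Other wall genes gave 2.53 (LOC111884960) for an extensin-like protein and 1.83 (LOC111887581) for MUCI21.

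Transcription factors gave 3.19 (LOC111891013) for WRKY31, 2.14 (LOC111877684) for ERF109, 1.63 (LOC111900419) for ERF025, 2.38 (LOC111912895) for MYB17, 0.91 (LOC111890307) for RADIALIS-like 3, 1.95 (LOC111914874) for scarecrow-like 21 and 2.403 (LOC111901011) for the chitin-inducible GRAS factor. Hormone enzymes gave 2.11 (LOC111877163) for GH3.1 and 2.41 (LOC111914174) for gibberellin 2-beta-dioxygenase 1. The remaining higher genes were dnaJ 11 at 3.098 (LOC111888104), cinnamoyl-CoA reductase 1 at 2.50 (LOC111889537), a disease resistance gene at 1.51 (LOC111883453), trehalose-phosphate phosphatase D at 1.76 (LOC111899324), L10 at 2.76 (LOC111886670), nudix hydrolase 17 at 1.60 (LOC111916179) and an uncharacterised gene at 2.51 (LOC111882598).

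Among genes lower in CdSeNP, kirola genes gave -2.70 (LOC111920935) and -1.47 (LOC111887588) and a lipid-transfer protein -1.66 (LOC111915888). The second kirola value and that of the lipid-transfer protein passed in 10 of 15 settings, with adjusted p up to 9.9e-02 and 9.8e-02. The GDSL esterases gave -3.06 (LOC111886836) and -3.61 (LOC111886847), the putative cell wall protein -3.29 (LOC111899681) and the proliferating cell nuclear antigen gene -2.77 (LOC111919730). NPF3.1 gave -1.18 (LOC111894372) and the vicilin-like gene -1.74 (LOC111919377). The isoflavone reductase homolog was the exception among these lower genes, at 0.75 (LOC111898507), since its decrease was larger without cadmium than with it, and it passed in 14 of 15 settings (adjusted p up to 5.8e-02).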

How the results depend on the processing

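The count of genes higher in CdSeNP (251) was 237 at an adjusted p of 0.01, 251 with a mean of at least 10 counts, 213 with edgeR, 222 with a DESeq2 refit, 181 with library totals and 173 with limma on log2(FPKM + 0.1), but fell to 13 at a fold change of at least 4 and to 107 with limma on log2(FPKM + 1). The count of lower genes (182) was 134 with a DESeq2 refit and 156 at the stricter adjusted p of 0.01. It fell to 20 at a fold change of at least 4, 105 with edgeR, 107 with edgeR scaled by library totals, 100 with limma on log2(FPKM + 0.1) and 48 on log2(FPKM + 1). Leaving out 1 library left 150 to 206 higher and 53 to 116 lower calls with edgeR. Refit counts are low by construction, since unlisted genes count as uncalled, and beyond that the cause was not tested.

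Libraries with the same number did not deviate together (correlations of -0.003, 0.075 and -0.150). Libraries with different numbers gave correlations from -0.139 to 0.155. These few values cannot settle whether the numbers pair the samples. With the replicate number as a block, edgeR called 168 higher and 52 lower genes, and the interaction count was 181 instead of 182. Of the 71 genes named by the rule, 44 kept their call in all 12 refits, 27 lost it in some and none changed direction. Of 1224 counts of function lists under other settings, 380 moved by over 1.5 times.

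In SeNP against CK, the 58 higher genes called lower became 3 with edgeR, the 16 lower genes called lower became 6, and the 13 lower genes called higher became 3. Without 1 library these counts ran from 0 to 58, from 0 to 15 and from 0 to 13, and the 3 genes higher in both ran from 2 to 3. The interaction count ran from 175 to 185. These alternatives for SeNP against CK were chosen after seeing the data. All 182 lower genes had a mean of at least 10 counts.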
